A study of Homo sapiens with 4 samples.

Results

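The genes CD79A, CD79B, LYN, BLK, SYK, BTK and BANK1 encode the signalling chains, the first kinases and an adaptor of the B-cell antigen receptor, upstream of the IkB kinases. They were taken as all probes whose symbol in the platform's probe-gene table is one of these 7. This gave 48 of 15246 probes, for 7 of 4604 genes with a probe of their own. CD79B had 12 probes, SYK 9, BTK 7, LYN 6, BANK1 6, BLK 5 and CD79A 3. A value on all 4 arrays was present for 37 of the 48 probes.

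CD79A and CD79B form the dimer that sits beside membrane immunoglobulin and carries the receptor's signal into the cell. When antigen binds, the Src family kinases LYN and BLK phosphorylate tyrosines in the tails of both chains, and SYK docks there and becomes active. SYK and LYN then act on BTK, a Tec family kinase that activates the lipase PLCG2, and BANK1 is an adaptor that links the receptor to LYN and calcium release. Further on, the signal reaches protein kinase C beta and then the IkB kinases IKKa and IKKb, which release NF-kB. OCI-Ly3 is a cell line from a human lymphoma of the ABC class (activated B-cell-like, among the diffuse large B-cell lymphomas), which is known for constant NF-kB activity.

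The cells carried a hairpin RNA against IKKa, the product of CHUK, that doxycycline switches on, and each of the 4 arrays set doxycycline-treated cells (Cy5) against cells without doxycycline (Cy3) at equal inhibitor status. The array of 3 days of doxycycline with inhibitor had 24 h of the IKKb inhibitor MLN120b in both channels, and the array of 2 days with inhibitor had 3 h. The arrays without inhibitor had 3 and 2 days of doxycycline alone. Doxycycline was at 20 ng/ml and MLN120b at 12.5 uM, the dyes were never swapped, and the labels name no separate cultures, so p-values measure only the spread between arrays of different duration. No array of cells without the hairpin was analysed here, so effects of doxycycline itself and of the hairpin cannot be told apart.

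Every value below is a log2 ratio between channels, a difference and not a level. The direction, doxycycline over no doxycycline, is likely and not stated in the file: it follows Cy5 over Cy3, and CHUK then lay below 0 on all 4 arrays, at -1.01 and -1.30 at 3 and 2 days with inhibitor and at -0.87 and -0.59 without. Its mean was -1.15 ± 0.20 with inhibitor (SD, n = 2, limma adjusted p = 0.013) and -0.73 ± 0.20 without (0.155). With the ratio the other way round, every sign below would turn. Correlations between arrays across 3589 genes were 0.47 to 0.75. The width of the ratios differed between arrays: the median absolute deviation across genes was 0.26 and 0.17 at 3 and 2 days with inhibitor, and 0.18 and 0.11 without. A ratio in a line of 1 cell type cannot tell less RNA per cell from fewer cells that express the gene, and it cannot show whether a B-cell marker is present. The B-cell marker MS4A1 (CD20) had a mean of -0.12 with and 0.02 without inhibitor. The 7 measured T cell markers (14 listed) had means of 0.11 to 0.55 with inhibitor and of -0.05 to 0.20 without. With inhibitor 1 of 7 passed, where 4.57% of all genes did: NKG7, a granule protein of killer cells, on 1 probe (limma adjusted p = 0.0443). The 7 measured myeloid markers (12 listed) had means of -0.31 to 0.61 with inhibitor, and of -0.22 to 0.11 without. Their part in the results was not tested.

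With the probes of a gene averaged, no member passed the test of its mean against 0, with or without inhibitor (limma, Benjamini-Hochberg adjusted p under 0.05 over all 3589 genes). With inhibitor 4.57% of genes passed, 3.04% lower and 1.53% higher, and without it 0%, with 400 genes at an unadjusted p under 0.05. In this fit a gene had the same standard error with and without inhibitor, although the arrays differed in width. After the arrays were scaled to equal spread, 148 genes passed with inhibitor and 116 without. The gap between the shares thus depended on the scaling and is not a measure of the inhibitor's effect. The members at an unadjusted p under 0.05 were 2 with inhibitor, LYN and SYK, and 0 without. LYN and SYK had the lowest means of the 7, and both lay below 0 on all 4 arrays, as 25.8% of genes did. No member was above 0 on all 4, where 15.5% of genes were. CD79A was above 0 on both arrays with inhibitor, and CD79B, BLK, BTK and BANK1 stayed within 0.20 of 0 on every array. None of the 7 was beyond 1.5-fold in 1 direction on both arrays of a group, where with inhibitor 2.4% of genes were lower and 0.836% higher by that rule, and without it 0.919% lower and 0% higher. Over the 7 genes the median mean was -0.12 with inhibitor and -0.04 without, and over all genes it was -0.01 with and -0.03 without.

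**Figure D1:**
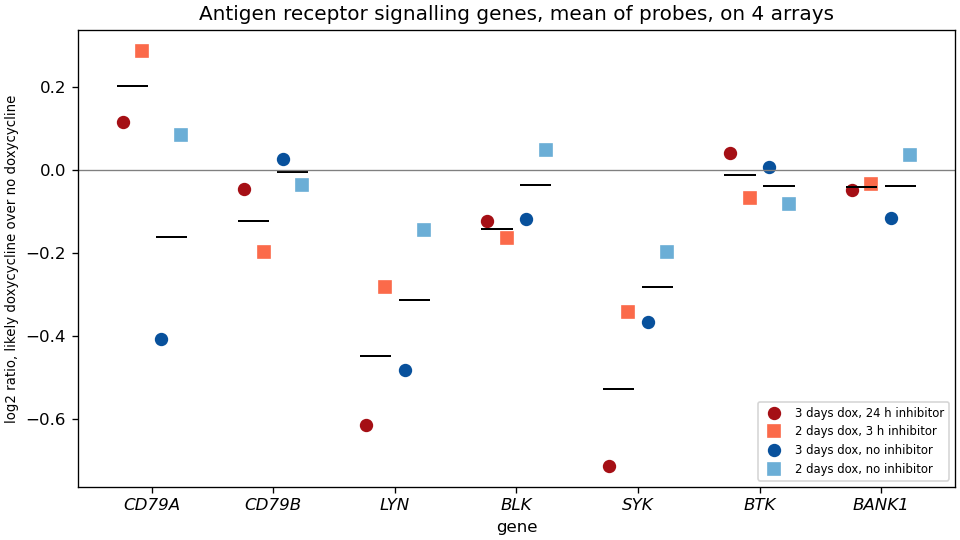
Log2 ratio (vertical axis, likely doxycycline over no doxycycline) of the 7 genes, each the mean of its probes with a value on all 4 arrays, with 1 symbol per array. Black lines are the means of the 2 arrays with inhibitor (left of each gene) and without (right); SYK and LYN are the lowest genes, at -0.53 and -0.45 with inhibitor.

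The means of the receptor chains lay on opposite sides of 0 with inhibitor, and neither passed. CD79A had log2 ratios of 0.12 and 0.29 at 3 and 2 days with inhibitor, against -0.41 and 0.09 without. Both arrays with inhibitor were higher than both without, as in 19.4% of genes, and the low value was that of 3 days of doxycycline alone. The mean was 0.20 ± 0.12 (SD, n = 2) with and -0.16 ± 0.35 without inhibitor, and the limma adjusted p was 0.404 and 0.735. CD79A had the largest difference of the 7, 0.36 (SE 0.21, 95% interval -0.13 to 0.85), at percentile 93.3 of all genes, and did not pass (adjusted p = 0.999).

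The 3 CD79A probes diverged. The highest, 16148_1, read 0.43 and 1.04 at 3 and 2 days with inhibitor, against -0.26 and 0.26 without. The middle one, 24391_1, read 0.14 and 0.05 with inhibitor, against -0.43 and 0.22 without. The lowest, 28689_1, was below 0 on every array, at -0.22 and -0.23 with inhibitor and at -0.53 and -0.23 without. All 3 probes had their lowest value on the array of 3 days without inhibitor, and all 3 were below 0 there. Without that array the mean of CD79A without inhibitor was 0.085 in place of -0.16.

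CD79B had log2 ratios of -0.05 and -0.20 at 3 and 2 days with inhibitor, against 0.03 and -0.04 without. Both arrays with inhibitor were lower than both without, as in 11.2% of genes, but the gap was small: the mean was -0.12 ± 0.11 with and -0.004 ± 0.05 without inhibitor. The limma adjusted p of these means was 0.516 and 0.989. The difference was -0.12 (SE 0.16, 95% interval -0.50 to 0.26, adjusted p = 0.999). Of its 12 probes 7 had a value on all 4 arrays, 4 on some and 1 on none. Each of the 7 complete probes had both signs among its 4 values. The lowest, 35041_1, read -0.40 and -0.84 at 3 and 2 days with inhibitor, against 0.07 and -0.41 without. The probe 34952_1 read -0.10 and -0.39 with inhibitor, against 0.44 and -0.10 without. Both had their highest value at 3 days of doxycycline alone, the array on which all 3 CD79A probes had their lowest. The CD79B probes 34330_1 and 25180_1 also had their lowest value there, at -0.23 and -0.03, so the CD79B probes did not share a direction on that array.

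LYN is the Src family kinase that starts receptor signalling in B cells and also turns on its inhibitory branch. It had log2 ratios of -0.62 and -0.28 at 3 and 2 days with inhibitor, against -0.48 and -0.14 without. All 4 values were below 0, the groups overlapped, and each 3-day array was lower than the 2-day array at the same inhibitor status. The mean was -0.45 ± 0.24 (SD, n = 2) with inhibitor, 1.37-fold lower in the likely direction, with a limma adjusted p of 0.0963. Without inhibitor it was -0.31 ± 0.24, 1.24-fold lower, with an adjusted p of 0.472. With inhibitor LYN passed when the doxycycline day was a block (limma adjusted p = 0.0198), which takes a shift between durations out of the spread. Over the alternatives that kept all 4 arrays the adjusted p ranged from 0.0198 to 0.14. With the 3 h or the 24 h array left out, the lone inhibitor array read -0.62 or -0.28.

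The 6 LYN probes all had values on every array and spread widely. The lowest, 17934_1, read -1.57 and -0.81 at 3 and 2 days with inhibitor, against -1.32 and -0.54 without. The next, 16173_1, read -1.08 and -0.70 with inhibitor, against -0.99 and -0.39 without. Both stood well below the gene's mean on every array. The probe 24435_1 read -0.50 and -0.28 with inhibitor, against -0.35 and -0.08 without. The probe 33973_1 read -0.36 and -0.19 with inhibitor, against -0.32 and -0.12 without. These were also below 0 on every array, by less. The probe 34056_1 read -0.19 and 0.10 with inhibitor, against 0.06 and 0.11 without, and 22092_1 read 0.001 and 0.18, against 0.01 and 0.16. These 2 stayed within 0.20 of 0. In 6 of 6 LYN probes 3 days were lower than 2 days both with and without inhibitor, as in 43.6% of all single probes.

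BLK, the other Src family kinase of the set, had log2 ratios of -0.12 and -0.16 at 3 and 2 days with inhibitor, against -0.12 and 0.05 without. Both arrays with inhibitor were again lower than both without, and the 3-day values differed by only -0.0045. The mean was -0.14 ± 0.03 with and -0.04 ± 0.12 without inhibitor (adjusted p 0.443 and 0.933). The gene mean rested on 2 of 5 probes: 30977_1 read -0.42 and -0.21 with inhibitor, against -0.32 and 0.07 without, while 17501_1 read 0.17 and -0.12 with inhibitor, against 0.09 and 0.03 without. The probe 17921_1, without a value at 2 days of doxycycline alone, read -0.72 and -0.43 with inhibitor, against -0.30 at 3 days without. The remaining 2 probes had a value only at 2 days without inhibitor, where they read -0.14 and -0.02. With incomplete probes that had a value in each group included, the BLK mean with inhibitor was -0.29 in place of -0.14 (adjusted p = 0.194), and the difference was -0.22 in place of -0.11 (0.999).

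SYK couples the phosphorylated receptor chains to the rest of the cascade. It had log2 ratios of -0.71 and -0.34 at 3 and 2 days with inhibitor, against -0.37 and -0.20 without. The lowest value was that of 3 days with 24 h of inhibitor, and the groups overlapped slightly. The mean was -0.53 ± 0.26 (SD, n = 2) with inhibitor, 1.44-fold lower in the likely direction, the lowest of the 7 and at percentile 6.13 of all genes. It missed the threshold (limma adjusted p = 0.066). Without inhibitor it was -0.28 ± 0.12, 1.22-fold lower (adjusted p = 0.483). The mean with inhibitor passed with the median of the probes (-0.54, adjusted p = 0.0492), with the doxycycline day as a block (0.0172) and without the array of 3 h of inhibitor (0.00261). The adjusted p ranged from 0.00261 to 0.44 over the alternatives.

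Among 8 complete SYK probes, 6 were below 0 on all 4 arrays. The probe 24687_1 read -1.48 and -0.70 at 3 and 2 days with inhibitor, against -0.89 and -0.24 without. The probe 33976_1 read -1.46 and -0.69 with inhibitor, against -1.22 and -0.62 without. These were the lowest, and both had the order of arrays seen for LYN. The probe 24540_1 read -0.87 and -0.44 with inhibitor, against -0.07 and -0.32 without, and 19244_1 read -0.72 and -0.47, against -0.55 and -0.31. The probe 29888_1 read -0.63 and -0.35 with inhibitor, against -0.10 and -0.07 without, and 15957_1 read -0.42 and -0.20, against -0.27 and -0.05. The probe 28567_1 lay between -0.16 and 0.06, and 22110_1 between -0.04 and 0.32. The probe 34061_1, with no value at 3 days of doxycycline alone, went the other way, at 0.53 and 1.19 at 3 and 2 days with inhibitor and 0.10 at 2 days without. With that probe included the SYK mean with inhibitor was -0.37 in place of -0.53 (adjusted p = 0.155).

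**Figure D2:**
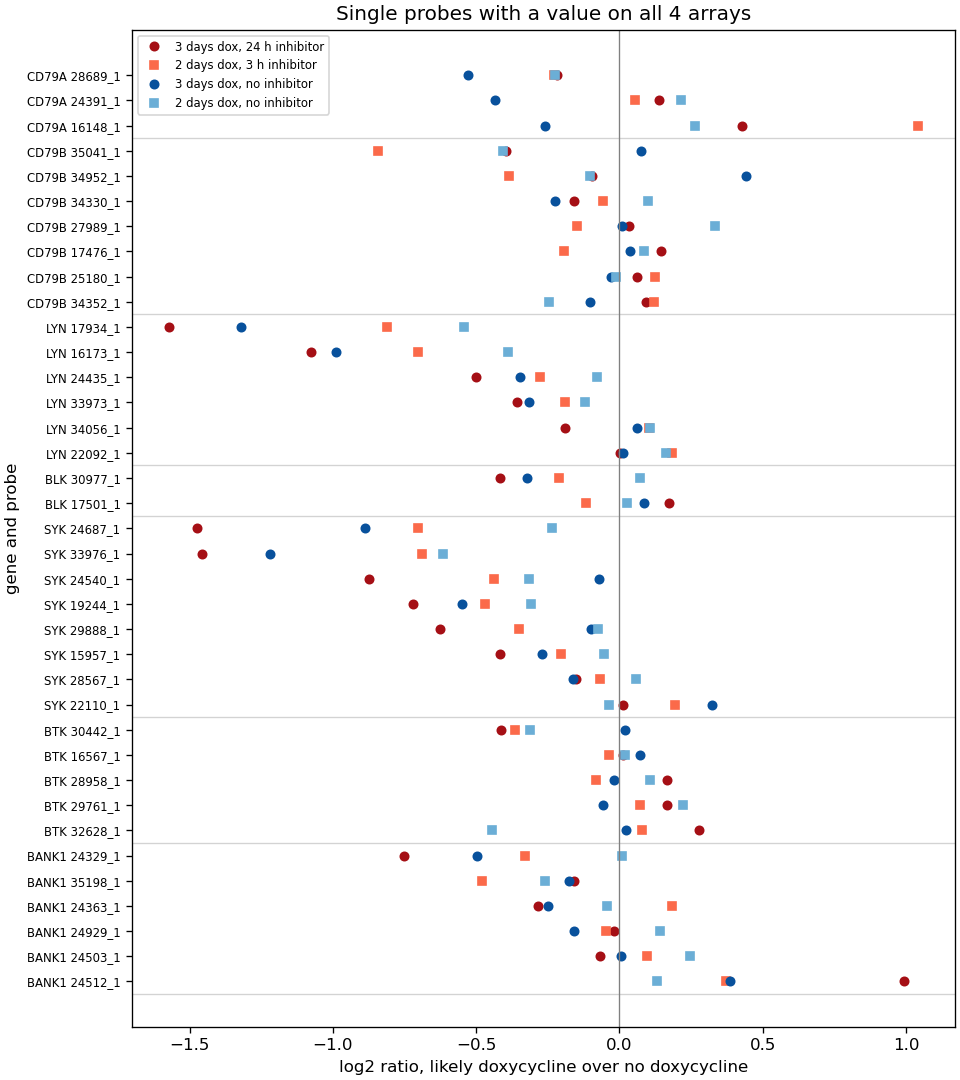
Log2 ratio (horizontal axis, likely doxycycline over no doxycycline) of each of the 37 probes with a value on all 4 arrays, grouped by gene, with 1 symbol per array. The lowest LYN and SYK probes reach -1.57 and -1.48 at 3 days with inhibitor while other probes of both genes lie near 0, and most probes of the other genes have both signs.

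BTK, the Tec family kinase, had the mean nearest to 0 with inhibitor. It had log2 ratios of 0.04 and -0.07 at 3 and 2 days with inhibitor, against 0.01 and -0.08 without. The means were -0.01 ± 0.08 and -0.04 ± 0.06, and the 95% interval of their difference was -0.35 to 0.40 (adjusted p = 0.999). All 5 complete probes had both signs among their 4 values. The probe 30442_1 read -0.41 and -0.37 at 3 and 2 days with inhibitor, against 0.02 and -0.31 without. The probe 32628_1 went the other way, at 0.28 and 0.08 with inhibitor, against 0.02 and -0.45 without.

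BANK1 had log2 ratios of -0.05 and -0.03 at 3 and 2 days with inhibitor, against -0.11 and 0.04 without. The means were -0.04 ± 0.01 with and -0.04 ± 0.11 without inhibitor, and the 95% interval of the difference was -0.38 to 0.37 (adjusted p = 0.999). This mean near 0 covered probes of opposite sign. The highest, 24512_1, was above 0 on every array, at 0.99 and 0.37 with inhibitor and at 0.39 and 0.13 without. The lowest, 24329_1, read -0.75 and -0.33 with inhibitor, against -0.50 and 0.01 without. The probe 35198_1 was below 0 on every array, at -0.16 and -0.48 with inhibitor and at -0.18 and -0.26 without.

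As single probes, 9 of the 37 complete probes passed with inhibitor (limma over 9788 probes, adjusted p under 0.05), or 24.3%, where 10% of all probes passed. A dye effect of a probe would stay in these tests against 0. Of the 9 probes, 7 passed with a mean below 0, where 6.27% of all probes did. They were 2 probes of LYN, 17934_1 (mean -1.19, adjusted p = 0.0116) and 16173_1 (-0.89, 0.0148), 4 of SYK, 24687_1 (-1.09, 0.0133), 33976_1 (-1.07, 0.0129), 24540_1 (-0.66, 0.0288) and 19244_1 (-0.60, 0.0318), and 1 of CD79B, 35041_1 (-0.62, 0.0465). The other 2 passed with a mean above 0, where 3.73% of all probes did: 16148_1 of CD79A (0.73, 0.036) and 24512_1 of BANK1 (0.68, 0.0356). The calls of 16148_1, 35041_1 and 24540_1 ended after the arrays were scaled to equal spread, those of 16148_1 and 35041_1 without the 3 h inhibitor array, and those of 24512_1, 19244_1 and 24540_1 without the 24 h array. Other probes of each of these genes did not pass, so these calls are of probes and not of genes. Probes of 1 gene share the same RNA and are not replicates.

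Without inhibitor 0 of the 37 passed as single probes, where 0.245% of all probes did, and 6 had an unadjusted p under 0.05. The lowest adjusted p was 0.0799, for 33976_1 of SYK at a mean of -0.92, followed by 0.0909 for 17934_1 of LYN at -0.93. Beyond 1.5-fold on both arrays of a group, 4 of 37 probes were lower with inhibitor (10.8%, against 3.03% of all probes), 2 of LYN and 2 of SYK. Without inhibitor 1 was (2.7%, against 1.27%), a SYK probe. None was higher by that rule in either group, where 1.25% of all probes were with inhibitor and 0.0306% without. With any single array of the inhibitor group left out, 4 probes passed in the group without inhibitor, 2 of LYN and 2 of SYK. After arrays were scaled to equal spread, 6 member probes passed with inhibitor and 3 without (2 of LYN and 1 of SYK).

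The ratio with inhibitor was set against that without it by the difference of the group means. A dye effect that a probe shows equally on all arrays drops out of it. No member and none of the 37 probes passed, where 0% of genes and of probes did (limma; 0 members and 1 member probe at an unadjusted p under 0.05). SYK differed by -0.25 (SE 0.19, 95% interval -0.69 to 0.20) and LYN by -0.14 (SE 0.20, -0.61 to 0.34). At 3 and 2 days taken singly SYK differed by -0.35 and -0.14, and LYN by -0.13 and -0.14. CD79B, LYN, BLK and SYK, 4 of the 7 genes, were lower with inhibitor at both days, as 25.6% of genes were. Of the 37 complete probes 18 were lower with inhibitor at both days, or 48.6%, against 25.9% of all probes, and 11 of these were probes of LYN or SYK. With an array left out, whose lone partner was assumed to vary like the other group, 1 probe passed for the difference without the 24 h inhibitor array, 16148_1 of CD79A (1.04, adjusted p = 0.0323), and 1 without the 3 h array, 24687_1 of SYK (-0.91, 0.0354). The difference of SYK shrank to -0.10 and that of LYN to -0.02 after the arrays were scaled to equal spread.

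**Figure D3:**
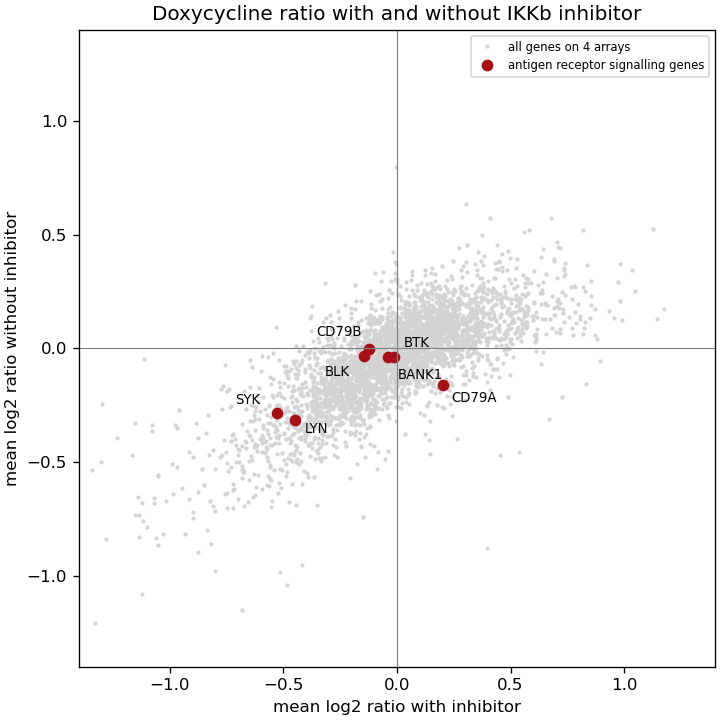
Mean log2 ratio with inhibitor (horizontal axis) and without (vertical axis) for 3589 genes (grey) and the 7 receptor signalling genes (red), with 17 genes outside the axis limits of 1.4 in either direction. SYK and LYN lie low on both axes, and CD79A is the member to the right of 0 with a mean below 0 on the vertical axis.

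LYN and SYK shared an order of arrays. Both were lowest at 3 days with inhibitor, then at 3 days without, then at 2 days with inhibitor, and highest at 2 days without, an order found in 11.3% of genes and 10.3% of single probes. CD79A and BANK1 were also lower at 3 than at 2 days at either inhibitor status, which makes 4 of the 7 genes, against 43.2% of all genes. The array's width moved with this order, being largest at 3 days with inhibitor and smallest at 2 days without. In units of each array's median absolute deviation, SYK had -2.76 and -2.06 at 3 and 2 days with inhibitor, against -2.07 and -1.82 without. LYN had -2.38 and -1.70 with inhibitor, against -2.73 and -1.32 without, on the same scale. So on this scale SYK was lowest at 3 days with inhibitor and LYN at 3 days without.

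Agreement among probes was poorer for LYN and SYK than for most genes. The SD over the probes of a gene, averaged over the 4 arrays, was 0.46 for LYN, 0.39 for SYK, 0.35 for CD79A, 0.34 for BANK1, 0.24 for CD79B and 0.20 for BTK. The median was 0.20 over 767 genes with 3 or more complete probes, in which LYN stood at percentile 96.0, SYK at 92.8, CD79A at 87.4, BANK1 at 86.6, CD79B at 64.3 and BTK at 49.8. All probes of a gene are annotated to 1 transcript accession, so the table does not show which transcripts or exons the diverging probes read. Below 0 on all 4 arrays were 12 of 37 probes, 4 of LYN, 6 of SYK and 1 each of CD79A and BANK1, or 32.4%, against 24.5% of all probes. Above 0 on all 4 were 2 probes, 1 of LYN and 1 of BANK1, or 5.41%, against 15.5% of all probes.

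**Figure D4:**
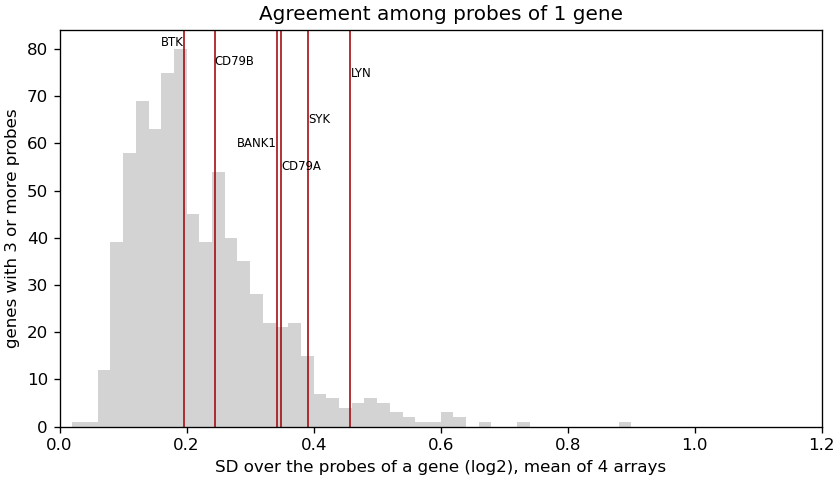
Histogram of the SD over the probes of a gene (log2, horizontal axis, mean of 4 arrays) for 767 genes with 3 or more complete probes (vertical axis, number of genes), with a red line for each receptor signalling gene of 3 or more such probes. LYN at 0.46 and SYK at 0.39 lie in the upper tail, BTK at 0.20 near the median.

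With inhibitor SYK had the lowest mean of the 7 genes and CD79A the only one above 0. Without inhibitor LYN was lowest, at -0.31, and CD79A stood at -0.16. SYK and CD79A are shown by the promoter of 1 RefSeq start site each (250 bases before to 50 after it, build GRCh38.p14, both on the plus strand, chr9:90801569-90801868 for SYK and chr19:41877029-41877328 for CD79A). Promoter windows were taken for 4 of the 7 genes (SYK, CD79A, BTK and BANK1), with 8 start sites in all, and for SYK the site with most matches is printed. Those of LYN, BLK and CD79B were not read here, which does not mean that RefSeq holds none. Capitals mark matches on either strand to a loose NF-kB pattern (GGG, then any 5 bases, then CC) and to GAGGAA, a core bound by the myeloid and B-cell factor SPI1, and these overlap in places.
SYK: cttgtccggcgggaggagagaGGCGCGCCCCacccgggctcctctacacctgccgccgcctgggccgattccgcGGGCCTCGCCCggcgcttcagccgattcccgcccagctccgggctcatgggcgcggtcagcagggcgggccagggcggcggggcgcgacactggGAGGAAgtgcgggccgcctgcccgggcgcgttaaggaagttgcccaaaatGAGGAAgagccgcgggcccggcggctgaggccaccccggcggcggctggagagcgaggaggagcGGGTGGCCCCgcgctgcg
CD79A: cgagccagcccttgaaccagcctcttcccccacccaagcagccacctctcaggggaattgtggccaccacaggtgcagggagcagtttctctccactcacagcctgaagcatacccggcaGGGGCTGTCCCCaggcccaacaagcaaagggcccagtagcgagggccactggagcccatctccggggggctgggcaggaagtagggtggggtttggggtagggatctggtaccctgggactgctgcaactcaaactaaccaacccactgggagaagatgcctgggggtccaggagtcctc
The SYK window held matches at 4 positions to the NF-kB pattern and at 2 to the SPI1 core, and the CD79A window at 3 and 0. The 3 positions of CD79A overlap in a single stretch. The SYK windows not printed held 2 and 0, and 3 and 1. The NF-kB pattern occurs in 58.7% of 35116 promoters of this length and the SPI1 core in 27.9%, so both are common. The octamer ATGCAAAT, found in 1.77% of promoters, was in neither window. A match is a description of letters and not of a bound site.

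By distance over the 4 log2 ratios, FNBP1 (0.06) and RBL2 (0.07) were nearest to LYN, and LTA4H (0.04) and PES1 (0.09) to SYK. RPAIN (0.14) and BTBD2 (0.19) were nearest to CD79A, MFNG (0.04) and ITPR3 (0.05) to CD79B, GOLGA7 (0.05) and VAV3 (0.06) to BLK, IL10 (0.03) and PSIP1 (0.05) to BTK, and STAT6 (0.03) and UBE2J1 (0.04) to BANK1. Of these, RPAIN, BTBD2, VAV3, PES1 and IL10 rested on 1 probe each.

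The rest of the receptor pathway was read from 5 lists. Of 11 measured receptor and coreceptor chains (17 listed) none passed with inhibitor, and 7 had means below 0, with a median of -0.11 and a range of -0.38 to 0.29. The tetraspanin CD81 had a mean of -0.38 with inhibitor, on 1 probe, and CD37, of the same family, had -0.28 with and -0.43 without. Of 8 measured other kinases of the Src, Syk and Tec families (12 listed) none passed and 1 was below 0, with a median of 0.07. That was SRC, at -0.53 (adjusted p = 0.0608), while FGR stood at 0.56 (0.0665), each on 1 probe. LYN and SYK had lower means than the other 7 of these relatives, while SRC stood below LYN. The comparison was not tested.

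Of 22 measured adaptors and enzymes of the signalosome (30 listed) 17 were below 0 with inhibitor, with a median of -0.12, and 1 of 22 passed, where 4.57% of all genes did. That was CD2AP, an adaptor of receptor uptake and the actin cytoskeleton, at -1.79 ± 0.30 with inhibitor (SD, n = 2, adjusted p = 0.0078), and at -1.37 ± 0.24 without, which did not pass (0.0693). Of 20 measured inhibitors of receptor signalling (30 listed) 5 were below 0 with inhibitor and none passed, with a median of 0.08. The largest means were those of FCRL4, at 0.46 (0.0775), and FCRL2, at 0.40 (0.119), both Fc receptor-like proteins of B cells. Over all genes 51.6% were below 0 with inhibitor, with a median of -0.01.

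Of 18 measured genes of the calcium, RAS and MAPK branches (32 listed) none passed, 10 were below 0, and the median was -0.08. PPP3R1, the regulatory subunit of calcineurin, had 0.33 with inhibitor, on 1 probe, and NFATC3, a transcription factor that calcineurin activates, had -0.31. Without inhibitor, and for the difference, no gene of the 5 lists passed.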

How the data were processed

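The authors deposited log ratios, which were taken to be log2 because on a log10 scale the values would span 13.1 orders of magnitude. Their base, direction, background correction and normalization, and why cells are empty, were not given in the sources used here. Array medians lay between -0.007 and 0. Spot brightness is not known, and 4 arrays limit the precision. Probes were named from GEO's platform annotation through RefSeq gene identifiers: 10169 of 15246 probes had 1 gene, 4 several and 5073 none. Probes with a value on all 4 arrays (9788, of which 6796 had a gene) were averaged to 3589 genes. limma 3.58.1 in R 4.3.3 fitted a mean per group of 2 arrays (2 residual degrees of freedom, prior 4.98), with two-sided p-values and Benjamini-Hochberg adjustment over all genes, and the same fit was run on single probes. The fit was also tried on simulated data of 3589 genes, in 200 of which a shift was planted. A shift of 1 log2 unit was found in 96.5% of these with inhibitor, 96.5% without and 77.5% for the difference. False calls then numbered 7, 20 and 8, in that order. A shift of 0.5 was found in 0% for each. These shares hold for the simulated data only. In the real data CD2AP, at -1.37 without inhibitor, did not pass (limma adjusted p = 0.0693). Members, lists and the rules for named and nearest genes (Euclidean distance) were chosen with earlier results of these data known. The arrays of a group are 2 durations, and equal durations were not taken as pairs, since the labels name no shared culture. Alternatives were centring, equal array spread, incomplete probes, the probe median, doxycycline day as a block, a robust prior (statmod 1.5.0), each array left out, an adjusted p under 0.10 and a 2-fold rule. The single-probe fit under these settings was chosen after seeing the data. The genes between protein kinase C and IKK are not reported here as a list.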

Additional observations from a re-analysis of the deposited data

Results flagged for a closer look

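Of the 37 complete probes, 2 of CD79B lay above 0 on both arrays with inhibitor and below 0 on both without. The probe 34352_1 read 0.09 and 0.12 at 3 and 2 days with inhibitor, against -0.10 and -0.25 without, a difference of 0.28. The probe 25180_1 read 0.06 and 0.13 with inhibitor, against -0.03 and -0.01 without, a difference of 0.115. Neither difference passed in limma (adjusted p = 0.999 for each), and 5.09% of all probes had both arrays of one group on the opposite side of 0 from both of the other. No gene mean of the 7 did so.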

How the results depend on the processing

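In the single-probe fit 9 of the 37 member probes passed with inhibitor, a count of probes and not of genes. Members called with inhibitor, 0 in the report, became 1 with the median of the probes (SYK), 2 with the doxycycline day as a replicate block and 2 at an adjusted p under 0.10. Under the other alternatives that kept all 4 arrays they were 0. Without inhibitor and for the difference they were 0 under every alternative. All genes called with inhibitor, 164, became 908 with the day block, 590 at 0.10, 979 as single probes and 34 to 858 with an array left out (858 without the 3 h inhibitor array, 34 with any single array without inhibitor left out). Incomplete probes gave 165 genes, of which 87 were lower, in place of 109. Without inhibitor the count of 0 became 116 after scaling to equal spread, 56 with the day block, 6 at 0.10, 24 as single probes and 0 to 231 with an array left out (231 with any single inhibitor array left out). For the difference it became 1 with incomplete probes and 0 to 119 with an array left out (10 without the 24 h and 119 without the 3 h inhibitor array). Member probes called with inhibitor, 9, were 6 to 13 under the alternatives and 6 to 9 with an array left out. Without inhibitor the count of 0 became 3 after scaling, 4 with the day block, 2 at 0.10 and 0 to 4 with an array left out, and for the difference 0 to 1. The sign of means near 0 turned for BTK with inhibitor (0.00068 with incomplete probes, 0.0645 with the probe median, -0.066 to 0.041 with an array left out) and without (0.0185 with the probe median, -0.083 to 0.0074), for CD79B without (0.00064 with incomplete probes, -0.036 to 0.028) and for the BANK1 difference (0.0048 with the probe median, -0.078 to 0.073). With an array left out it also turned without inhibitor for CD79A (-0.41 to 0.085), BLK (-0.118 to 0.048) and BANK1 (-0.114 to 0.037), and in the difference for LYN (-0.306 to 0.034) and BTK (-0.029 to 0.079). The causes were not tested. The block joined arrays of equal doxycycline duration, which the labels do not name as pairs.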
